A study of Drosophila melanogaster with 12 samples.

Results

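The cuticle protein genes of Drosophila melanogaster encode the structural proteins that the epidermis secretes into the chitin layers of the exoskeleton. Their transcripts were measured here in adult heads 60 h after eclosion. Members were all genes whose RefSeq symbol begins with Cpr and a number, Twdl, Lcp, Ccp84, Edg, Pcp, Acp65 or Vajk, or is Acp1, and that have a probe set assigned to a single gene. This gave 109 of the 11982 genes measured, in 8 families: 66 Cpr, 24 Twdl, 7 Lcp, 4 Vajk, 3 Ccp84 and 3 Edg genes, and Acp65Aa and Pcp. RefSeq lists 130 genes under these names. Of the others, 8 have only probe sets shared with another gene and 13 have none in the platform annotation, and neither kind entered a test.

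The study compared w1118 controls, the mutants tbphΔ23 and tbphΔ142, which carry loss-of-function alleles of the fly homologue of TDP-43, and a rescue group, with 3 arrays per group that the labels call biological replicates. The rescue flies carried the tbphΔ23 mutation together with elav-GS-GAL4, a neuronal driver that is active only in the presence of RU-486, and UAS-TBPH, and were fed 5 mM RU-486 from eclosion for 60 h. The other groups ate standard food without the drug. No group with the drug alone or the transgenes alone was included, so drug feeding, the transgenes and TBPH re-expression cannot be told apart in the rescue. The driver is neuronal, whereas cuticle proteins are products of epidermal cells. The sexes and the number of heads behind each array are not given in the sources used here.

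Insect cuticle is a composite of chitin fibres and proteins, and in the days after eclosion the fly still thickens, hardens and darkens it. Families here are groups by gene symbol and not by protein sequence. The Cpr genes, the largest of them, share a chitin-binding motif, the Rebers and Riddiford consensus. The Tweedle (Twdl) proteins were named for a body shape mutant and are best known from larval cuticle, as are the Lcp proteins. The Edg genes and Pcp are known from pupal cuticle and Acp65Aa from adult cuticle, and the Vajk genes encode cuticular proteins of ectodermal tissues, 3 of them next to the Nimrod genes on chromosome arm 2L.

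All values are log2 intensities made by RMA, so a difference of 1 is a 2-fold change, and the levels of different genes cannot be set against each other. A gene counted as changed at an adjusted p under 0.05 in a limma fit of all 12 arrays, adjusted over all 11982 genes. The TBPH value was 5.69 to 5.77 in w1118, 5.81 to 5.83 in tbphΔ23, 4.29 to 4.32 in tbphΔ142 and 6.17 to 6.57 in the rescue, and since the positions of its probes are not known here it checks neither deletion. Rescue replicate 1 stood apart from all other arrays. Its mean correlation with its own group was 0.973, where the lowest of the 9 arrays outside the rescue had 0.995. The gut trypsins alphaTry and betaTry read 12.91 and 12.56 there and at most 4.41 on the other 11 arrays, and the flight muscle gene fln read 6.35 there and at most 4.24 elsewhere. Rescue results are therefore also given without this array, and the part of gut or muscle tissue in the results was not tested.

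Most cuticle protein genes were dim in these heads. In 70 of the 109 members the highest group mean stayed under 5, near the array median, including 21 of the 24 Twdl and 6 of the 7 Lcp genes, 39 of the 66 Cpr genes, and 2 genes each of the Ccp84 and Edg families. The files carry no detection calls, so it was not determined which of these were above background. Among them, the value of Lcp65Aa is the median of 2 probe sets that averaged 6.03 and 3.73 in w1118. The 39 brighter members were 27 Cpr, all 4 Vajk and 3 Twdl genes with Lcp65Ac, Acp65Aa, Ccp84Ac, Edg91 and Pcp. Group means of at least 10 were reached by 11 members in w1118, by 10 in tbphΔ23, by 9 in tbphΔ142 and by 4 in the rescue. The mean over all 109 members was 5.22 to 5.26 on the w1118 arrays, 5.00 to 5.06 in tbphΔ23, 4.95 to 5.04 in tbphΔ142 and 4.35 to 4.39 in the rescue, so that the rescue arrays lay below all others.

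**Figure D1:**
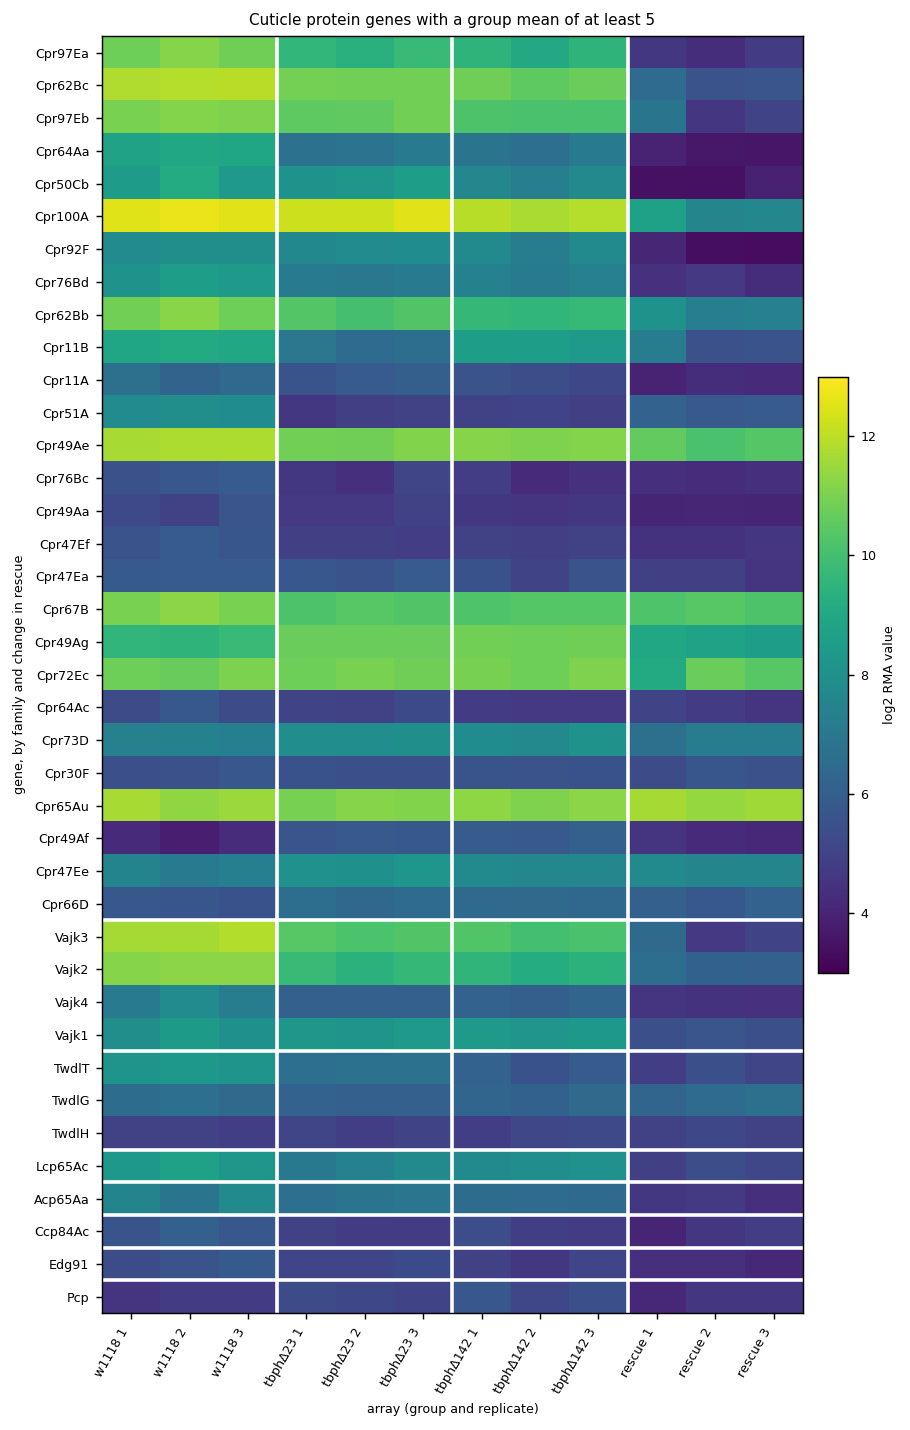
Log2 RMA values of the 39 cuticle protein genes with a group mean of at least 5 (rows, by family and then by the change in the rescue) on the 12 arrays (columns). The upper Cpr rows and the Vajk rows are brightest in w1118, dimmer in most rows in both mutants and darkest in the 3 rescue arrays.

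The first comparison asked how cuticle transcripts differ when tbph is lost. Cuticle protein genes fell more often than they rose in both mutants. In tbphΔ23, 26 members were lower than in w1118 and 8 were higher, where 11.9% of all genes were lower and 9.4% higher. In tbphΔ142, 28 were lower and 9 higher, against 15% and 10% of all genes. Over both mutants together 29 were lower (26.6% of members, 15.7% of all genes) and 10 higher (9.17%, 11.4% of all genes), and the median change of the members was -0.05. Overlap of arrays was counted over all members, with or without a call. All 6 mutant arrays read below all 3 w1118 arrays in 30 members (27.5%, against 15.2% of all genes) and above them in 7 (6.42%, against 10.9%).

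Cpr51A showed the largest fall of any member in the mutants. It read 7.84, 7.93 and 7.87 in w1118, 4.62, 4.89 and 4.97 in tbphΔ23, and 4.94, 5.01 and 4.91 in tbphΔ142. The w1118 arrays were alike and all 6 mutant arrays were far below them, which gave changes of -3.05 ± 0.10 and -2.93 ± 0.10 (log2 ± SE, n = 3 against 3, limma adjusted p 5.83e-09 and 9.90e-09). Next in size came Cpr64Aa, which was 4.05-fold lower over both mutants, TwdlT (3.81-fold), Vajk2 (3.32-fold), Vajk3 (2.83-fold), Cpr97Ea (2.80-fold), Cpr11B (2.61-fold) and Vajk4 (2.43-fold). Cpr76Bd, Cpr76Bc, Cpr62Bc and Cpr62Bb were lower by 2.03- to 2.26-fold.

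A smaller set of Cpr genes moved the other way. Cpr49Af read 4.21, 3.85 and 4.26 in w1118, 5.64, 5.80 and 5.74 in tbphΔ23 and 5.87, 5.81 and 6.07 in tbphΔ142, a 3.28-fold rise over both mutants (limma adjusted p 8.76e-07). Its neighbour Cpr49Ag was 9.49 to 9.73 in w1118 and 10.72 to 10.86 in the 6 mutant arrays, a 2.25-fold rise (limma adjusted p 1.19e-06). Both genes separated the mutant arrays completely from w1118, from above. Cpr47Ee rose by 0.58 over both mutants and the pupal cuticle gene Pcp by 0.62 (limma adjusted p 8.60e-04 and 0.00542). Cpr66D and Cpr73D, taken up after their values were seen, rose by 0.82 and 0.57 (limma adjusted p 3.90e-05 and 0.00408).

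The alleles differed in few members. Between tbphΔ142 and tbphΔ23, 1 member was higher and 1 lower, where 1.42% of all genes were higher and 2.07% lower (3.49% in all). Cpr11B read 8.91, 9.10 and 8.98 in w1118, 6.95, 6.50 and 6.62 in tbphΔ23 and 8.59, 8.58 and 8.41 in tbphΔ142. The tbphΔ142 arrays lay just below w1118 without overlap (-0.47 ± 0.36, limma adjusted p 0.396), and the tbphΔ23 arrays far below both. The alleles differed by 1.83 ± 0.36 (limma adjusted p 0.0175). These SEs pool the spread of all groups, and the SD of Cpr11B was 0.99 in the rescue, 0.093 in w1118 and 0.098 in tbphΔ142. The missing call against w1118 therefore rests in part on the spread of the rescue arrays. TwdlT read 6.66, 6.75 and 6.74 in tbphΔ23 and 6.16, 5.52 and 5.92 in tbphΔ142, after 8.17 to 8.32 in w1118, a difference between the alleles of -0.85 ± 0.16 (limma adjusted p 0.0165). Neither call held without tbphΔ23 replicate 2 or replicate 3, or without tbphΔ142 replicate 2 or replicate 3, when 0 members passed. That of Cpr11B also failed without tbphΔ142 replicate 1 (limma adjusted p 0.0653), and its difference in these 5 fits was 1.74 to 1.89.

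**Figure D2:**
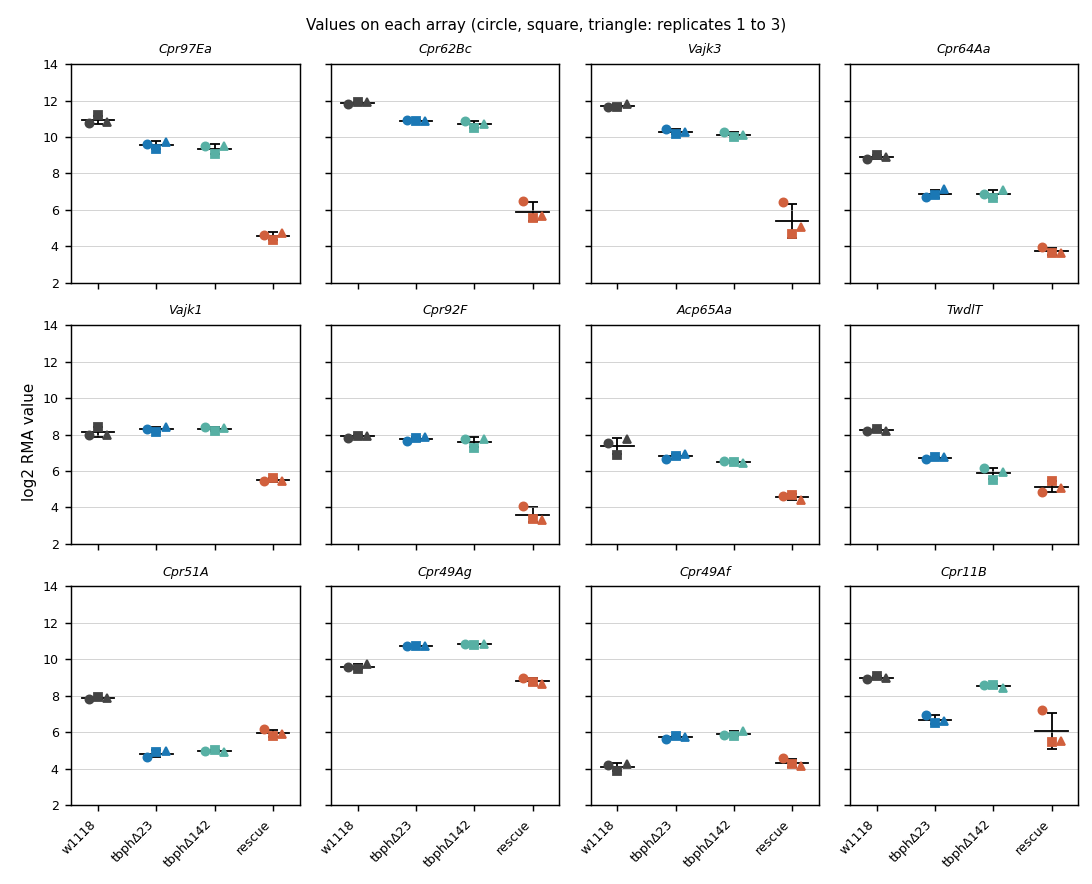
Log2 RMA values of 12 cuticle protein genes on each array, by group, with the group mean (line) and SD (bar, n = 3). In most panels the mutants lie between w1118 and the rescue. They lie level with w1118 in Vajk1 and level with it or slightly below it in Cpr92F. In Cpr51A they lie below the rescue, and in Cpr49Af and Cpr49Ag above both other groups. Rescue replicate 1 (circle) reads above the other rescue arrays most clearly in Vajk3 and Cpr11B, and by less in further panels such as Cpr62Bc and Cpr92F. It reads below them in TwdlT.

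The second comparison asked where the rescue lay. Relative to tbphΔ23, the allele it carries, 34 members were lower and 5 higher, against 15.1% and 14.3% of all genes. Relative to tbphΔ142, 35 were lower and 4 higher, against 13.2% and 14.3%. Relative to w1118, 38 were lower (34.9% of members, 18% of all genes) and 3 higher (2.75%, 16.9% of all genes), with a median change of -0.14. Without rescue replicate 1, 34 were below and 5 above tbphΔ23 (14.1% and 13.4% of all genes) and 31 below and 4 above tbphΔ142 (12% and 13.3%). In that fit 35 were lower than in w1118 (32.1%, against 17.3% of all genes) and 3 were higher (16.8% of all genes). Since these arrays hold bulk head RNA, fewer epidermal cells and less of these transcripts per cell cannot be told apart.

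The falls in the rescue were large. There were 18 members more than 4-fold below w1118 (16.5%), where 1.65% of all genes fell that far, and 9 of them were more than 16-fold below. Rescue values under 5 are not known to be above background, so folds against them, here and for the lists below, rest on values that may be background. Among the 20 genes of the whole array with the largest falls 5 were cuticle protein genes, and among the largest 100 falls there were 16. All 3 rescue arrays read below all 9 other arrays in 29 members (26.6%, against 11% of all genes) and above them in 0 (10.4% of all genes). With rescue replicate 1 left out, the other rescue arrays were below all 9 in 30 members, against 13.3% of all genes.

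Among the Cpr genes, Cpr62Bc read 11.79, 11.90 and 11.92 in w1118, 10.91, 10.87 and 10.86 in tbphΔ23, 10.85, 10.51 and 10.70 in tbphΔ142 and 6.48, 5.55 and 5.64 in the rescue. The groups stepped down without overlap, and the rescue was 63.1-fold below w1118 (limma adjusted p 1.44e-09; 77.5-fold without rescue replicate 1). Cpr97Ea took the same steps, with 10.79 to 11.20 in w1118, 9.05 to 9.74 in the mutants and 4.32 to 4.75 in the rescue, with all arrays the largest fall of any member from w1118 (-6.38 ± 0.16). Without rescue replicate 1 the change was -6.41, and that of Vajk3, -6.86, was larger. Its neighbour Cpr97Eb was 10.97, 11.15 and 11.05 in w1118 and 6.87, 4.60 and 5.04 in the rescue, where rescue replicate 1 read well above the other rescue arrays. The fall of Cpr97Eb was 47.0-fold with all arrays and 75.4-fold without that array, and it was the 1 member whose change against w1118 moved by over 1.5-fold.

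Cpr100A fell from 12.52, 12.71 and 12.57 in w1118 to 8.72, 7.54 and 7.61 in the rescue (24.9-fold, limma adjusted p 5.14e-08), with 11.73 to 12.54 in the mutants. Cpr50Cb went from 8.42 to 9.16 in w1118 down to 3.45 to 3.92 in the rescue (34.3-fold), and Cpr64Aa from a w1118 mean of 8.89 down to 3.61 to 3.94 (35.8-fold). Cpr76Bd (14.9-fold), Cpr62Bb (10.3-fold), Cpr11B (7.55-fold) and Cpr11A (4.82-fold) were also lower. Without rescue replicate 1 the falls were 32.5-fold for Cpr100A and Cpr50Cb, 38.6-fold for Cpr64Aa, 85.0-fold for Cpr97Ea, 14.6-fold for Cpr76Bd, 12.4-fold for Cpr62Bb, 11.2-fold for Cpr11B and 4.46-fold for Cpr11A. Against tbphΔ23, Cpr11B did not pass with all arrays (-0.61 ± 0.36, limma adjusted p 0.233) and passed without that array (-1.19, 9.26e-06). Cpr92F differed from these in the mutants. It read 7.81, 7.94 and 7.94 in w1118, 7.65 to 7.87 in tbphΔ23, 7.25 to 7.75 in tbphΔ142 and 4.07, 3.38 and 3.32 in the rescue. The mutants did not pass the test (-0.22 ± 0.16 over both, limma adjusted p 0.368), although each tbphΔ142 array read below each w1118 array. The rescue was 19.8-fold below w1118 (23.4-fold without rescue replicate 1).

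All 4 Vajk genes passed below each other group in the rescue. Vajk3 read 11.64, 11.67 and 11.83 in w1118, group means of 10.29 and 10.13 in the mutants and 6.44, 4.66 and 5.05 in the rescue, 80.6-fold below w1118 and 116-fold without rescue replicate 1. Vajk2 fell from 11.17 to 11.27 in w1118 to 9.19 to 9.75 in the mutants and 6.06 to 6.63 in the rescue (31.3-fold), with both of its probe sets lower, by 5.15 and 4.79. Vajk4 was 7.57-fold lower than in w1118. Vajk1 read 7.95 to 8.44 in w1118, 8.16 to 8.39 in the mutants and 5.46, 5.64 and 5.46 in the rescue. Its mutant arrays overlapped w1118 (0.17 ± 0.11, limma adjusted p 0.289), and the rescue stood 6.12-fold below w1118 (limma adjusted p 2.02e-08). Without rescue replicate 1 the change of Vajk1 was -2.59, and Vajk2 and Vajk4 were 35.6-fold and 7.66-fold lower.

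In the remaining families single genes moved and most of the rest were dim. Acp65Aa, an adult cuticle protein, read 7.51, 6.88 and 7.75 in w1118, 6.65, 6.84 and 6.94 in tbphΔ23, 6.55, 6.48 and 6.42 in tbphΔ142 and 4.61, 4.68 and 4.39 in the rescue. The rescue was 7.08-fold below w1118 (limma adjusted p 2.22e-07), while the lower mean of tbphΔ23 passed narrowly (limma adjusted p 0.0406) and failed with array medians centred (0.0657). Lcp65Ac went from 8.28 to 8.71 in w1118 to 7.05 to 8.07 in the mutants and 4.90 to 5.41 in the rescue (9.79-fold below w1118). Of the other 6 Lcp genes only Lcp65Aa passed against w1118, with a change of -0.35 that failed without rescue replicate 1 (limma adjusted p 0.0838). Without that array Acp65Aa was 7.21-fold and Lcp65Ac 8.97-fold below w1118.

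TwdlT was the Tweedle gene that changed most. It read 4.86, 5.46 and 5.09 in the rescue, 8.48-fold below w1118 (limma adjusted p 5.09e-08) and 7.70-fold without rescue replicate 1. TwdlR was the other Twdl gene lower in the rescue, by 1.27-fold at a level under 4, and 22 of 24 did not pass. Ccp84Ac was 5.61 to 6.08 in w1118, 4.72 to 5.37 in the mutants and 4.05 to 4.82 in the rescue (2.50-fold below w1118), and Edg91 was 5.33 to 5.83, 4.64 to 5.24 and 4.12 to 4.39 (2.43-fold). These were 2.15-fold and 2.49-fold without that array. Ccp84Ae, Ccp84Ag, Edg78E and Edg84A had means under 4.3 in every group and did not pass against w1118. Pcp read 4.56 to 4.76 in w1118, 5.07 to 5.73 in the mutants and 4.11 to 4.59 in the rescue, without a call against w1118 (-0.27 ± 0.16, limma adjusted p 0.222).

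**Figure D3:**
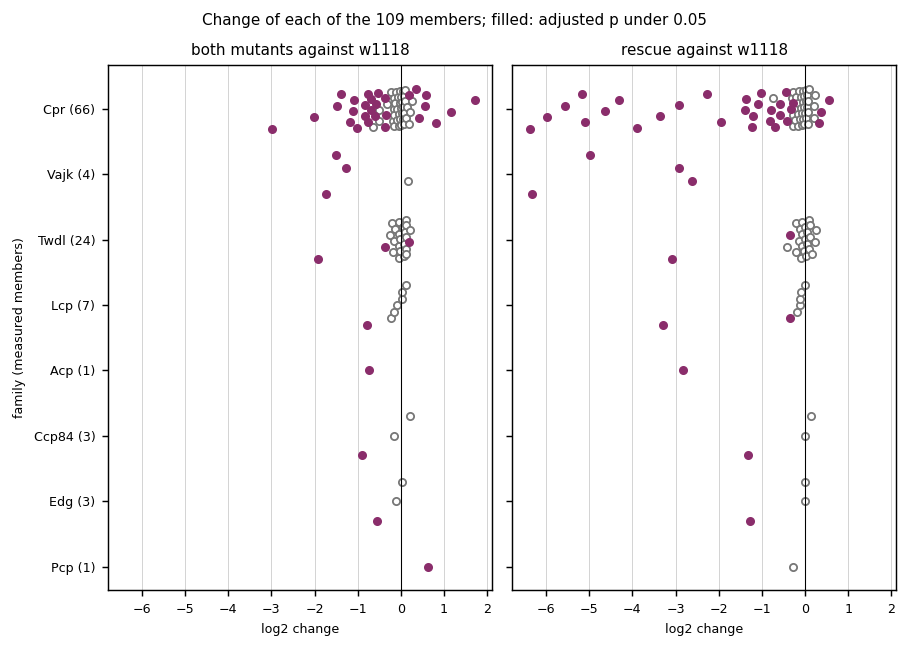
Log2 change of each of the 109 members over both mutants (left) and in the rescue (right) against w1118, by family, on the same scale. Filled points passed an adjusted p of 0.05. The falls in the rescue reach -6.38 for Cpr97Ea and all 4 Vajk genes lie at -2.61 or below, while nearly all Twdl and Lcp genes lie near 0.

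Read as an order of groups, 18 members stepped down with every w1118 array above every mutant array and every mutant array above every rescue array (16.5%, against 4.46% of all genes). These were 11 Cpr genes with TwdlR, TwdlT, Vajk2, Vajk3, Vajk4, Lcp65Ac and Edg91. For the 18 members that fell more than 4-fold in the rescue, the distance from w1118 to the mean of the mutants was a median of 25.1% of the distance from w1118 to the rescue. It was 62.6% in TwdlT, 39.1% in Cpr64Aa and 5.07% in Cpr92F, and in Vajk1 the mutants lay on the other side of w1118 (-6.35%). These genes were picked for their fall in the rescue, so the percentages are a description.

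Other members did not follow that order. Cpr51A read 6.15, 5.79 and 5.89 in the rescue, above all 6 mutant arrays and below all w1118 arrays, 2.16-fold above tbphΔ23 (limma adjusted p 9.94e-06) and 3.84-fold below w1118 (6.04e-08). Cpr49Af came to 4.56, 4.23 and 4.16 in the rescue, 2.65-fold below tbphΔ23 (limma adjusted p 7.99e-06) and without a call against w1118 (0.21 ± 0.13, 0.239). Without rescue replicate 1 the changes against w1118 were -2.04 in Cpr51A and 0.09 in Cpr49Af. Cpr49Ag passed below the control level, with a mean of 8.80 ± 0.19 in the rescue (SD, n = 3), 3.80-fold below tbphΔ23 and 1.75-fold below w1118 (limma adjusted p 2.85e-05). In Cpr65Au, picked for a small span of its group means among Cpr genes with a mean over 7, the mutants read 10.96 to 11.32. They were lower than w1118 by 0.36 (limma adjusted p 0.0117), and w1118 and the rescue overlapped at 11.35 to 11.70 and 11.43 to 11.64. That call was lost without w1118 replicate 1 (limma adjusted p 0.0673), and tbphΔ142 alone did not pass (-0.29, 0.0665).

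Further patterns were picked out after the values were seen. Cpr67B was 10.98 to 11.28 in w1118 and 10.19 to 10.41 on all other arrays, with no call between the rescue and tbphΔ23 (-0.02 ± 0.093, limma adjusted p 0.913). Cpr60D fell by 0.69 over both mutants (limma adjusted p 8.84e-04) and was 4.21 to 4.41 in w1118 and 3.95 to 4.57 in the rescue. The 3 members above w1118 in the rescue were Cpr47Ee (0.33), Cpr66D (0.37) and Cpr78Ca (0.56), and the call of Cpr47Ee was lost without rescue replicate 1 (limma adjusted p 0.115).

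Cpr66D and Cpr72Ec are known as proteins of the corneal lens, which is secreted by cells of the eye. Neither passed below w1118 over both mutants or in the rescue. Cpr66D was still lower in the rescue than in tbphΔ23 (-0.49, limma adjusted p 0.00329) and tbphΔ142 (-0.40, 0.0122). Cpr72Ec read 10.78, 10.67 and 11.04 in w1118, 10.80 to 11.06 in the mutants and 9.10, 10.73 and 10.42 in the rescue, so that only rescue replicate 1 was clearly lower, and the rescue did not pass against w1118 (-0.75 ± 0.31, limma adjusted p 0.0876; -0.25 without that array). The lens protein gene retinin, which is no member, had group means of 13.58, 13.21, 13.10 and 13.35 and was lower in the rescue by 0.23 (limma adjusted p 0.00526). Photoreceptor marker genes, 4 of 7 measured, averaged 11.93 to 12.28 over all arrays. Their mean was 11.98 to 12.07 in w1118, 12.25 to 12.28 in tbphΔ23, 12.16 to 12.18 in tbphΔ142 and 11.93 to 12.06 in the rescue. Over both mutants 2 of them were higher than in w1118 and 0 lower, where 11.4% of all genes were higher and 15.7% lower.

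Many members lie side by side, and 75 of the 109 belong to 15 runs of neighbouring cuticle protein genes with no more than 2 other genes between them. Only runs with at least 3 measured members were counted. Changes were unequal within a run. The counts below stand beside 18% of all genes lower and 16.9% higher in the rescue than in w1118. Over both mutants 15.7% of all genes were lower and 11.4% higher. Of the 7 genes from Cpr49Aa to Cpr49Ag, the rescue was below w1118 in 5 and above it in 0, and both mutants together were below in 2 and above in 2. Of the 4 genes from Cpr64Aa to Cpr64Ad, 3 were lower in the rescue, and Cpr64Aa alone fell by over 4-fold. The long run at 65A on arm 3L has 19 genes that fit the naming rule, 11 of them measured here, and 3 were lower in the rescue. Of 12 measured Twdl genes in the run from TwdlM to TwdlQ on arm 3R 1 was lower in the rescue, and in the runs from Cpr65Ea to Cpr65Ec and from TwdlX to Twdlalpha 0 passed in the rescue or over both mutants.

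**Figure D4:**
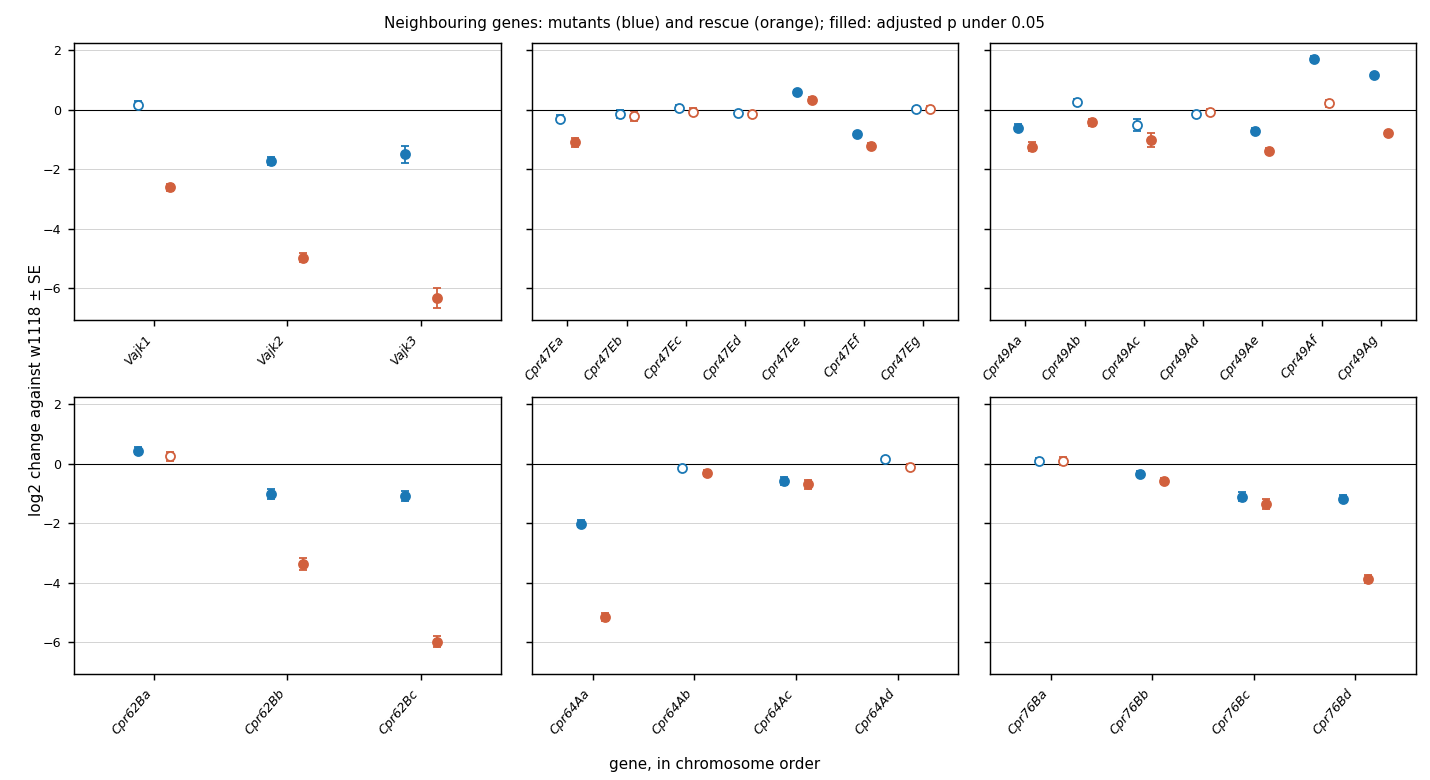
Log2 change ± SE against w1118 of neighbouring genes in 6 runs, in chromosome order, for both mutants (blue) and the rescue (orange), filled where the adjusted p was under 0.05. In the runs of Cpr62Bc and Cpr64Aa these genes lie below -4 in the rescue while Cpr62Ba and Cpr64Ad lie near 0, and Cpr49Af and Cpr49Ag are the points above 1 in the mutants.

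Genes that build or modify the rest of the cuticle were counted from lists. Their counts stand beside 18% of all genes lower and 16.9% higher in the rescue than in w1118 (17.3% and 16.8% without rescue replicate 1), and 15.7% lower and 11.4% higher over both mutants. Of 36 measured genes of chitin synthesis and remodelling (39 listed), the rescue was below w1118 in 19 (52.8%) and above it in 6 (16.7%), and 17 were lower (47.2%) and 5 higher (13.9%) over both mutants. The chitin synthase gene kkv had a mean of 10.14 in w1118, 8.59 to 9.47 in the mutants and 4.53, 3.61 and 3.92 in the rescue, 69.7-fold below w1118 (limma adjusted p 1.27e-09; 83.1-fold without rescue replicate 1). The chitinase genes Cht5 and Cht7 were 64.4-fold and 23.9-fold lower, and Cda4, a chitin deacetylase gene, was 21.5-fold lower. The 6 that rose were all Idgf genes, chitinase-like growth factors, with Idgf1 at 1.56 and Idgf6 at 1.45 above w1118. Without rescue replicate 1 the count was the same, 19 lower and 6 higher.

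Of 21 measured genes of tanning and pigmentation (25 listed), 9 were lower (42.9%) and 2 higher (9.52%) in the rescue, and 9 and 4 without rescue replicate 1. Over both mutants 5 were lower (23.8%) and 4 higher (19%). The yellow family gene yellow-d2 fell from 8.56 to 9.12 in w1118 to 3.81 to 4.72 in the rescue (25.0-fold), yellow-e was 4.99-fold lower, and ple, the tyrosine hydroxylase gene, was 2.09-fold lower. Another yellow gene, yellow-f, rose over both mutants by 1.48 (limma adjusted p 2.43e-05). Of 12 measured zona pellucida domain genes of the apical matrix 7 were lower in the rescue (58.3%) and 0 higher, as many as without that array, and 5 were lower (41.7%) and 1 higher (8.33%) over both mutants. The largest fall was that of zye, which read 5.60 to 6.18 in w1118, 3.72 to 3.99 in the mutants and 2.89 to 3.31 in the rescue.

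Of 22 measured ecdysone genes 5 were lower (22.7%) and 1 higher (4.55%) in the rescue. There were 3 lower (13.6%) without rescue replicate 1, so the share of lower genes lay near that of all genes. Over both mutants 2 were lower and 1 higher. Eip78C, an ecdysone-induced nuclear receptor, was 6.70 to 7.23 in w1118, 5.19 to 6.69 in the mutants and 4.36 to 4.67 in the rescue (5.31-fold below w1118), and ftz-f1 was 0.55 above w1118 (limma adjusted p 3.84e-04). Of 7 measured genes of epidermal differentiation 3 were lower (42.9%) and 1 higher (4 and 1 without rescue replicate 1), and 3 were lower and 0 higher over both mutants. With all arrays the changes were small: grh, an epidermal transcription factor, differed by -0.35 and mwh, which acts on hair formation, by -0.50. Without rescue replicate 1, vri was also lower, 2.07-fold below w1118 (limma adjusted p 0.00624).

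**Figure D5:**
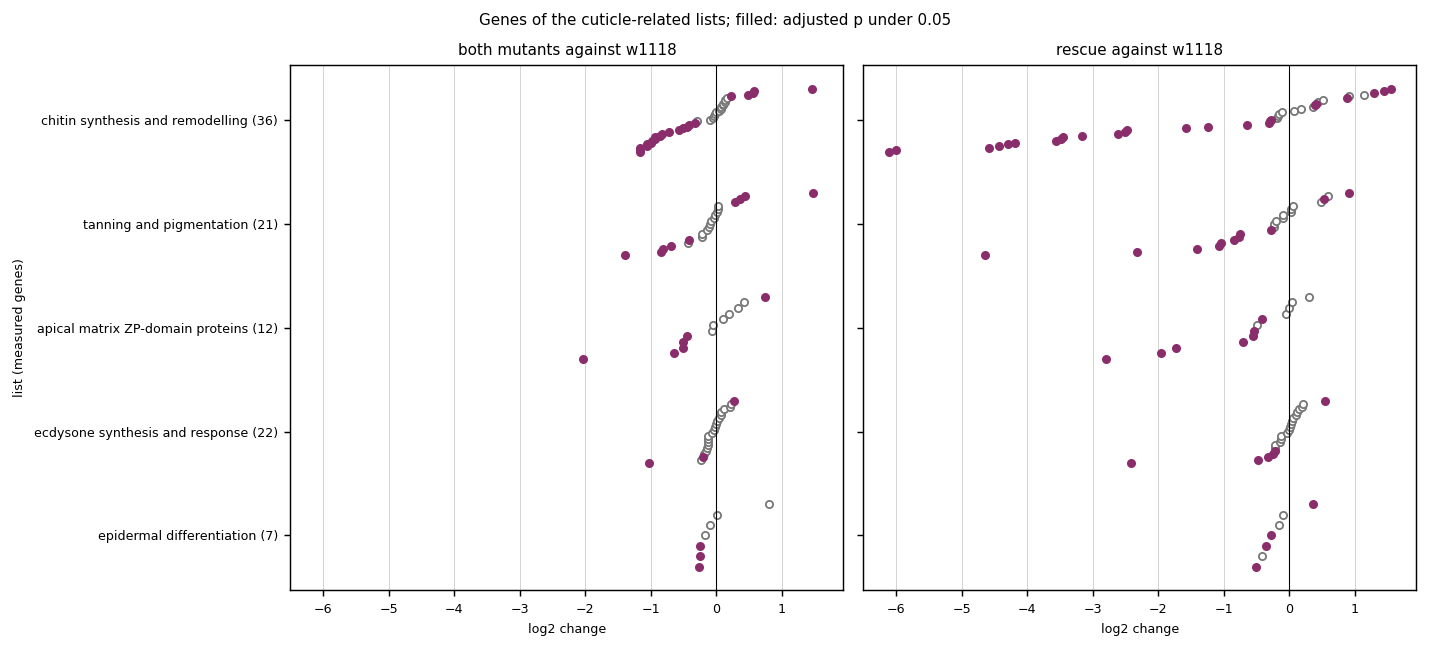
Log2 change of each measured gene of 5 cuticle-related lists over both mutants (left) and in the rescue (right) against w1118, on the same scale, filled where the adjusted p was under 0.05. Chitin genes reach -6.12 for kkv in the rescue, while genes of epidermal differentiation stay within 1 of w1118 in this fit of all arrays.

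Marker genes of other tissues also differed between the rescue and w1118. Of all genes, 18% were lower and 16.9% higher in that comparison (17.3% and 16.8% without rescue replicate 1). Over both mutants 15.7% of all genes were lower and 11.4% higher. Of 7 hemocyte markers 5 were higher than in w1118 in the fit without rescue replicate 1, and their mean was 5.52 to 6.03 in w1118 and 6.76 to 6.97 in the rescue. Of 5 measured olfactory markers of the antenna 4 were higher in that fit, with a mean of 5.96 to 6.22 in w1118 and 9.10 to 10.72 in the rescue. Of 5 measured female head and germ line markers, 3 were higher and 0 lower than in w1118 without rescue replicate 1. Their mean was 8.64 to 10.19 in w1118, 7.34 to 8.38 in tbphΔ23, 9.06 to 9.92 in tbphΔ142 and 11.50 to 11.66 in the rescue. One of these, the female and fat body transcript fit, read 4.03 to 9.24 in w1118 and 13.05 to 13.35 in the rescue. The fat body list went both ways against w1118, with 3 of 5 measured genes higher in the rescue and 2 lower. Fbp1 fell by -3.27 and Fbp2 by -1.52 without rescue replicate 1. Over both mutants 2 of the 5 were also lower than in w1118. In the rescue 0 of 5 were lower than in either mutant (15.1% of all genes against tbphΔ23, 13.2% against tbphΔ142). Against tbphΔ23, Fbp1 and Fbp2 changed by -0.02 and -0.18 without rescue replicate 1 (limma adjusted p 0.975 and 0.614). The yolk protein genes Yp1 and Yp2 were lower in tbphΔ23 than on any other array. The means of 8 neuronal markers (8.13 to 8.48) and 5 glial markers (9.27 to 9.50) were nearly level over the 12 arrays, although 3 of the neuronal markers rose and 2 fell from w1118 to the rescue and 2 of the glial markers were lower over both mutants. Of 7 measured muscle markers 3 were lower and 1 higher in the rescue (4 and 2 without rescue replicate 1). The part of the head parts, sexes or tissues sampled in the cuticle results was not tested.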

How the data were processed

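Whole adult heads gave total RNA (TRIzol), which was biotin-labelled with the 3′ in vitro transcription kit for Affymetrix Drosophila Genome 2.0 arrays. The authors made the deposited log2 values from the CEL files by RMA, with background correction, quantile normalization and summarization per probe set. The labels name RMA and limma without versions, and the CEL files were not used here. Quantile normalization holds array distributions alike, so changes are relative to other genes. No counts or detection calls are given, and 3 arrays per group limit the precision. Nothing says how the biological replicates were raised, so p-values measure only the spread between these arrays, which may be technical.

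The platform annotation ties 13647 of the 18952 probe sets to a single gene and 402 to several, and leaves out 4903. RefSeq symbols were found for 13544 of the 13647, and the annotated symbol stood for 103. The 109 members have 113 probe sets, and probe sets of a gene were collapsed by their median. In Cpr47Ef they disagreed: its dim probe set stayed near 3 and its bright one fell by 2.43 in the rescue against w1118. RefSeq was used for names and gene order, not for positions on an array. No sequence was used.

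Group means were fitted with limma 3.58.1 in R 4.3.3 over all 12 arrays, with 7 two-sided contrasts and Benjamini-Hochberg adjustment over all genes at 0.05. On simulated data the steps recovered the largest planted changes at the same array number. Each simulated gene had the same spread in all groups, without the wider spread of the rescue arrays. The recovery of small changes is not given here. Alternatives were another probe set summary, centring or equalising arrays again, leaving out dim genes, trend and robust moderation, fitting only the compared groups, array weights, a replicate block and leaving out each array.

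The members, lists and tests were chosen with earlier results of these data known. Named genes are all members of families with up to 5 members, up to 12 Cpr genes or 6 of another family with the largest change past the threshold in the rescue against w1118, up to 10 or 6 over both mutants, up to 3 per family in the other comparisons, members whose replicates span over 2 in a group, in larger families the 2 members with a mean over 7 whose group means span least, and up to 4 genes per list. Genes outside it are said to have been picked after their values were seen. The lens genes were also picked in this way.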

Additional observations from a re-analysis of the deposited data

Results flagged for a closer look

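The mutant alleles differed in 2 members by the contrast of tbphΔ142 with tbphΔ23 in the limma fit. Cpr11B was higher in tbphΔ142 by 1.83 on the log2 scale and TwdlT differed by -0.85, with tbphΔ142 lower. Groups of 3 arrays were too small for a test of single outlying arrays.

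Probe sets shared by several cuticle genes entered no test. On the probe set shared by Ccp84Aa and Ccp84Ab all 3 tbphΔ23 arrays (7.67, 7.72 and 7.99) read above the 3 w1118 arrays (7.11, 7.45 and 7.39), with means 0.47 apart. The other allele went the opposite way there, with 7.03, 6.47 and 7.07 in tbphΔ142, a difference of -0.46 from w1118. On that shared by Lcp65Ag1 and Lcp65Ag2 all 3 tbphΔ142 arrays (6.13, 5.97 and 5.99) read above w1118 (5.55, 5.79 and 5.74), with means 0.34 apart. There tbphΔ23 differed from w1118 by -0.07. Neither rise was thus shared by both alleles, and the share of all probe sets that separate in this way was not counted.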

How the results depend on the processing

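For the 6 comparisons other than that of the alleles, the count of members past the threshold stayed within 1.5 times its value under all 21 alternatives. Between tbphΔ142 and tbphΔ23 the count of 2 became 4 with dim genes left out, 7 in a fit of these groups alone and 5 with array weights, and leaving out 1 array gave 0 to 7. It was 0 without tbphΔ23 replicate 2 or 3 or tbphΔ142 replicate 2 or 3, 4 without w1118 replicate 2 and 7 without rescue replicate 1.

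Replicate numbers paired no arrays: residuals of same-numbered arrays correlated at -0.212 to 0.0914, 0 of 18 pairs exceeded 0.1, and 3 of 12 arrays were closest to their own number. With a replicate block, 30 members passed in tbphΔ23 (34 without it), 37 in tbphΔ142 (37), 42 in the rescue against w1118 (41) and 3 between the alleles (2).

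Of 151 calls of named members, 128 were kept under all 21 alternatives, 23 were lost when some array was left out, 11 under another alternative, and 0 reversed. Those lost include Acp65Aa, Edg91 and Pcp in tbphΔ23, Cpr100A and Ccp84Ac in tbphΔ142, Lcp65Aa in the rescue and small changes of TwdlB, TwdlC, TwdlG and TwdlL.

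Centring array medians moved the share of higher genes among all calls in tbphΔ142 from 40.2% to 49.5% and that of members from 24.3% to 25%. Rescue arrays correlated less with their own group (0.973 to 0.985) than the other arrays (at least 0.995), while the fit pools the spread of all groups. Signals near the array median have no known detection limit here.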

Other observations

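On the probe set shared by Ccp84Aa and Ccp84Ab the rescue arrays read 3.76, 3.65 and 3.49, against 6.47 to 7.99 on the other 9 arrays. A probe set shared by Acp1, an adult cuticle protein gene, and CG31904 read 13.51 to 13.77 on the 9 arrays outside the rescue and 12.10, 8.11 and 10.17 in the rescue. The probe set shared by Cpr65Ax1 and Cpr65Ax2 stayed at 3.08 to 3.46 on all 12 arrays. These values belong to no single gene.

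Rescue replicate 1 read over 0.5 above the mean of the other rescue arrays in 8 members, by up to 2.05, and over 0.5 below it in 4, by up to 1.48.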
